A study of Mus musculus with 4 samples.

Results

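The ionotropic receptors of fast synaptic transmission were described across the cell types of the mouse hypothalamus, in wild-type mice and in mice with a mutant thyroid hormone receptor α1 (TRα1). The genes were chosen by name alone, as those that encode subunits of AMPA (Gria), NMDA (Grin), kainate (Grik) and delta (Grid) glutamate receptors, of GABA-A receptors including the rho subunits (Gabr), and of glycine receptors (Glr). They came to 42 of the 32285 genes in the count tables, of which 18 belong to glutamate receptors, 19 to GABA-A receptors and 5 to glycine receptors. All samples were 10x Genomics single-nucleus libraries from the hypothalamus of adult males on the C57/BL6NCr strain background, and each of the 4 libraries pooled nuclei from 3 mice of 1 genotype. The 2 groups were wild type (WT, n = 2 libraries) and TRα1+m (n = 2 libraries), in which 1 allele of Thra carries a point mutation that lowers the affinity of TRα1 for thyroid hormone and the other allele is wild type. The allele is present in the germline and thus in every cell of the TRα1+m mice, so that a difference in 1 cell type does not separate an effect within that cell from effects of the mutation elsewhere in the animal, and a point mutation cannot be checked from counts per gene. The study ran as 2 experimental repeats, each with 1 library per genotype.

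Glutamate opens AMPA, NMDA and kainate receptors, which are cation channels built from 4 subunits, and neurons excite each other through them, whereas GABA-A and glycine receptors are chloride channels built from 5 subunits that inhibit most mature neurons. The subunits decide the properties of the channel: Gria2 carries an RNA-edited site that keeps calcium out of AMPA receptors, Grin1 is present in every NMDA receptor, and the α subunit next to the γ subunit sets the drug sensitivity of GABA-A receptors. Glia carry some of these receptors too, since oligodendrocyte progenitor cells (OPCs) receive synapses from neurons and astrocytes take up the transmitters that neurons release. Thyroid hormone is required for the maturation of oligodendrocytes, and unliganded or mutant TRα1 acts as a repressor on genes that the hormone-bound receptor activates.

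Levels are given as CPM, the unique molecular identifiers (UMIs) of a gene summed over the nuclei of 1 cluster in 1 library and scaled to 1000000 UMIs of that cluster and library. Unless named otherwise, a run of 4 values lists WT of repeats 1 and 2 and then TRα1+m of repeats 1 and 2, and means are over the 4 libraries with their SD. The authors' own cluster names were used, and after their filters the libraries held 11976 to 16435 nuclei and 47260127 to 59112785 UMIs. Libraries shared 44 to 64 cell barcodes pairwise, which was 0.367 to 0.443% of the smaller one. Each main cluster held the markers of its name, with Rbfox3 at 184 CPM in Neurons_1. TRα1+m of repeat 2 stood apart in that it held nearly all nuclei of the cluster Neurons_2 (5, 1, 6 and 852 nuclei), and that cluster entered no comparison. It also held most nuclei that the authors named vascular and leptomeningeal cells within astrocytes (0, 1, 2 and 36 nuclei). Of the Neurons_1 sub-cluster #11 it held few (81, 44, 133 and 4 nuclei). Both of these stayed in the sums of their main clusters. Summed levels of 10 genes taken as neuron-specific served as a measure of RNA from neurons in glial clusters. These sums were lowest in TRα1+m of repeat 2 (1596, 1501, 1465 and 956 CPM in oligodendrocytes).

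In Neurons_1, the cluster of nearly all hypothalamic neurons, Gria2 and Grin1 had the most UMIs for their gene length. Because intronic reads were counted and longer genes give more of them, genes were compared on CPM per kb of gene span, as mean ± SD of 4 libraries in Neurons_1. Gria2 had 9.54 ± 0.706 CPM per kb, Grin1 had 8.798 ± 0.211 CPM per kb and lower genes included Gria4 at 3.46 ± 0.161 CPM per kb, the GABA-A subunits Gabra2 at 3.38 ± 0.241 and Gabrb1 at 3.06 ± 0.119 CPM per kb. The lowest Gria2 library (8.91 CPM per kb) was below the highest Grin1 library (9.05), so that the order of these 2 genes was not beyond the spread between libraries, while both were above all libraries of Gria4. The ranges of Gria4 and Gabra2 overlapped, as did those of Gabra2 and Gabrb1. Glrb, the β subunit shared by glycine receptors and bound by gephyrin, had 2.85 ± 0.536 CPM per kb. On the same scale Grin2b, which dominates NMDA receptors early in life, had 1.52 ± 0.163 CPM per kb, and Grin2a, which joins them later, had 0.7005 ± 0.0333 CPM per kb.

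Across 5 main clusters (Neurons_1, oligodendrocytes, OPCs, astrocytes, and microglia with macrophages), 21 members had their highest mean CPM in Neurons_1, 9 in OPCs, 5 in astrocytes, 3 in oligodendrocytes and none in microglia, while Gabra6, Gabrp, Gabrr1 and Gabrr3 were under 1 CPM in all 5. Of the 21 neuronal genes, 17 had all 4 Neurons_1 libraries above all libraries of the next cluster, as had 5 of the 9 OPC genes, 3 of the 5 astrocyte genes and 1 of the 3 oligodendrocyte genes. Among NMDA receptor genes Grin2a was at 299.6 ± 14.3 CPM in Neurons_1, 10.3 times the next cluster, and Grin1 at 246 ± 5.91 CPM, 4.93 times the next. The glycine receptor α subunit genes Glra1, Glra2 and Glra3 were also highest in Neurons_1, with Glra1 at 34.8 ± 1.73 CPM, Glra2 at 76.2 ± 8.47 CPM and Glra3 at 137 ± 1.85 CPM in Neurons_1 and ratios to the next cluster of 8.13, 6.24 and 7.68. In all of these the Neurons_1 libraries lay above every glial library, whereas Gria2 was at 1158 ± 85.7 CPM in Neurons_1 and 1022 ± 85.4 CPM in OPCs, where the ranges overlapped. Glra4, another α subunit gene, was at 2.30 ± 0.774 CPM in oligodendrocytes and 1.95 ± 0.210 CPM in Neurons_1, where the libraries overlapped. Counts behind the members differed widely: the 4 AMPA genes held 708554 UMIs over all kept nuclei, the delta genes 710379, the kainate genes 513348, the NMDA genes 279239, the glycine receptor genes 85027 and the 3 rho genes 701, and 8 of the 42 members had under 1000. Grik2 and Grin3a overlap other annotated genes on the same strand, so their reads could include those of the neighbours.

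**Figure D1:**
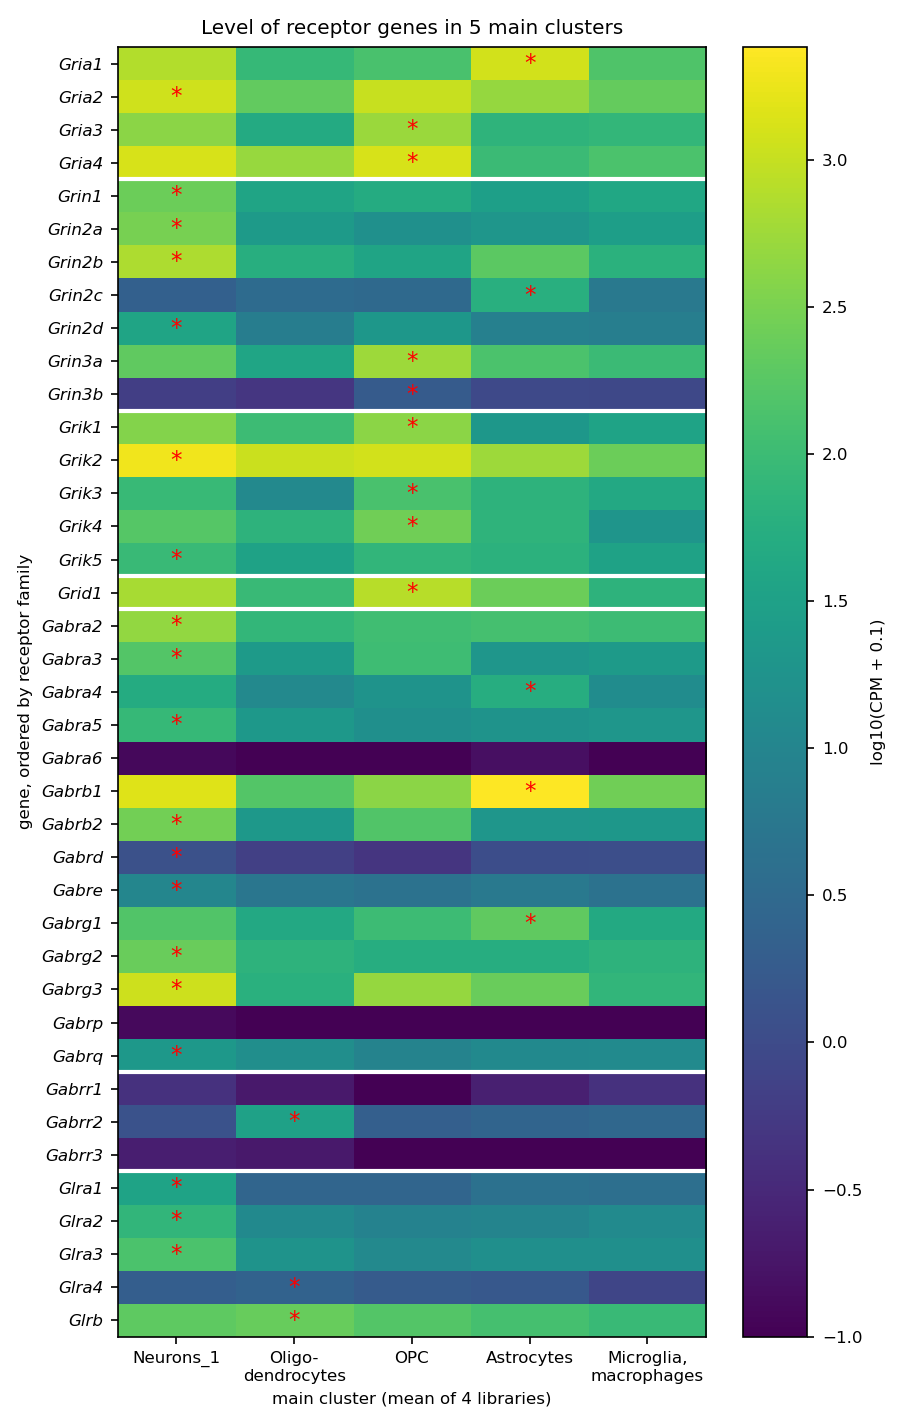
Each row is 1 of 39 receptor genes, ordered by family from AMPA through NMDA, kainate, delta, GABA-A and rho to glycine receptors, and each column a main cluster. Colour gives log10 of the mean CPM of 4 libraries plus 0.1, and a red asterisk marks the cluster with the highest mean for genes of at least 1 CPM: 19 asterisks fall in Neurons_1, 8 in OPCs, 5 in astrocytes and 3 in oligodendrocytes.

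Glial nuclei carried some RNA of the 10 genes taken as neuron-specific. Each member's ratio of glial to Neurons_1 CPM was therefore set beside the highest ratio among those genes in the same library. Over the libraries this value reached 2.54 in oligodendrocytes, 1.62 in OPCs, 2.46 in astrocytes and 3.26 in microglia, each time from Nefl. Nefl thus reached higher levels in glia than in Neurons_1. The median ratio of the 10 genes was 0.383 in oligodendrocytes, 0.482 in OPCs, 0.335 in astrocytes and 0.483 in microglia. A member that did not pass was only not above the highest of these genes. By this strict measure Gabrr2 passed in oligodendrocytes, Grin3a in OPCs and Grin2c in astrocytes, each in all 4 libraries, and no member passed in microglia. Among only the glial nuclei below their library's median in neuronal RNA, the number was 13 rather than 3. Of these, 7 were in OPCs (with Gria3, Gria4, Grid1, Grik3, Grik4 and Grin3a among them) and 5 in astrocytes (Gabrb1, Gabrg1, Gabrr2, Grin2c and Grin3b). The nuclei were chosen by the same 10 genes that set the value to pass. That value thus fell by the choice itself, to at most 1.27 in oligodendrocytes, 1.06 in OPCs and 1.23 in astrocytes over the libraries. The rise in the number passing is no separate evidence. Gabrr2 rested on 13, 10, 7 and 17 UMIs in all astrocyte nuclei, and Grin3b on 2, 4, 3 and 4 in the astrocyte sub-cluster.

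Grin2c encodes the NMDA subunit known from cerebellar granule cells and from astrocytes, and was at 37.2, 80.4, 32.6 and 82.4 CPM in astrocytes, 18.2 to 56.4 times its Neurons_1 level. Both libraries of repeat 2 were higher than both of repeat 1, and the difference between repeats of 1.19 (log2, SE 0.14) passed edgeR's quasi-likelihood test with Benjamini-Hochberg adjustment over all genes (adjusted p = 7.05e-11). Ependymal markers in astrocytes differed with the repeat as well (117, 23.4, 162 and 13.6 CPM summed over 3 genes), and their part in the Grin2c difference was not tested. Its obligate partner Grin1 was at 29.9 ± 8.24 CPM in astrocytes against 246 ± 5.91 CPM in Neurons_1, a ratio of 0.0902 to 0.162 that lay within the range of the neuron-specific genes.

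Astrocytes also led in Gria1 and in GABA-A genes that lie side by side. Gabrb1, a β subunit, was at 2450.1, 2291, 2687 and 2252 CPM in astrocytes and 1498, 1549, 1543 and 1423 CPM in Neurons_1, with no overlap. Gabrg1, a γ subunit, was at 205 ± 31.0 CPM against 154 ± 10.8 CPM, and Gabra4 at 52.9 ± 7.58 CPM against 49.6 ± 4.87 CPM, and in both the ranges overlapped. These 3 genes stand with Gabra2 in a cluster on chromosome 5 (70751047 to 72149037, GRCm38), and Gabra2 was at 124 ± 5.98 CPM in astrocytes against 467 ± 33.3 CPM in Neurons_1. The genes of the other GABA-A clusters, on chromosomes 7, 11 and X, had their highest level in Neurons_1, apart from Gabra6, which was under 1 CPM everywhere. Within the astrocyte cluster the genes were set apart by sub-cluster: tanycytes, the radial glia of the third ventricle, had 359 ± 95.6 CPM of Gabrb1, 52.7 ± 4.26 CPM of Gabrg1 and 17.3 ± 9.30 CPM of Gabra4, while the astrocyte sub-cluster had 2861 ± 274 CPM, 238 ± 34.9 CPM and 60.2 ± 7.22 CPM. In the opposite direction, the kainate subunit gene Grik3 was at 222, 512, 150.4 and 524 CPM in tanycytes and 11.6, 10.2, 9.69 and 9.80 CPM in astrocytes. Every tanycyte library was above every astrocyte library, and the tanycyte level was 1.97 to 5.12 times that of Neurons_1.

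OPCs held the highest level of Grid1, which encodes a delta subunit that binds cerebellin rather than opening to glutamate. Grid1 was at 799, 866, 786 and 819 CPM in OPCs and 662, 621, 637 and 622 CPM in Neurons_1, without overlap. Grin3a, which lowers the calcium permeability of NMDA receptors, was at 519, 596, 537 and 563 CPM in OPCs, 2.33 to 3.03 times its Neurons_1 level, while Grin1 was at 49.99 ± 8.20 CPM. Of the kainate genes, Grik3 was at 134 ± 30.2 CPM and Grik4 at 272 ± 9.14 CPM in OPCs, both above all Neurons_1 libraries. Among AMPA genes, Gria4 was at 1335 ± 52.6 CPM in OPCs and 1309 ± 61.0 CPM in Neurons_1, whose ranges overlapped.

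From OPCs to oligodendrocytes most of these genes were lower, by a description that the clusters' own genes made and that carries no test. Grid1 was at 817 CPM in OPCs and 92.3 CPM in oligodendrocytes, Grin3a at 554 and 37.8 CPM, Gria4 at 1335 and 516 CPM and Gria2 at 1022 and 212 CPM. Gabrr2, whose rho family is best known from the retina, went the other way, with 2.02 CPM in OPCs and 35.1, 52.0, 18.5 and 21.4 CPM in oligodendrocytes, 16.2 to 57.6 times its level in Neurons_1. This was the oligodendrocyte gene that led its next cluster in all libraries, and it rested on 91, 141, 50 and 54 UMIs. Glrb was at 229 ± 28.0 CPM in oligodendrocytes and 199 ± 37.5 CPM in Neurons_1, where the ranges overlapped.

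The 250 bases before the RefSeq start are shown for the 2 members above that mark a glial type and the 2 AMPA genes that differed most in glia between the genotypes below, as far as the RefSeq table for GRCm38.p6 held them, to show whether the letters that thyroid hormone receptors bind lie in them. They are Grin2c (chr11:115267244-115267493, minus strand), Gabrr2 (chr4:33062862-33063111, plus strand), Gria2 (chr3:80802836-80803085, minus strand) and Gria4 (chr9:4796235-4796484, minus strand), written 5′ to 3′ on the strand of the gene, with the hormone receptor half-site AGGTCA on either strand in capitals.
Grin2c: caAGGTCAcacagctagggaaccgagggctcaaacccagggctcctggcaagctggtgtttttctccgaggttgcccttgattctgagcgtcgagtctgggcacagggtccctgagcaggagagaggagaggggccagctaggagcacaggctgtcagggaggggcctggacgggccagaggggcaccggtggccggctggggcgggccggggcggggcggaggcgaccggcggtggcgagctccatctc
Gabrr2: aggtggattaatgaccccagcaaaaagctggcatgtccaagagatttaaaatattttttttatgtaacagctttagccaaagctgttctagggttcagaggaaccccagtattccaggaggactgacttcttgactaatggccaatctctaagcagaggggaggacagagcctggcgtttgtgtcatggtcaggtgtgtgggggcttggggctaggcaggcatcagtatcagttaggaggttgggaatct
Gria2: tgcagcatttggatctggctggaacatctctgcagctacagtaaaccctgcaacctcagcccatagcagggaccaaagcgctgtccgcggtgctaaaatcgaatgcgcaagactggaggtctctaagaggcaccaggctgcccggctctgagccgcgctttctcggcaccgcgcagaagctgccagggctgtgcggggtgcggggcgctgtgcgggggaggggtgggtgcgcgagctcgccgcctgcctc
Gria4: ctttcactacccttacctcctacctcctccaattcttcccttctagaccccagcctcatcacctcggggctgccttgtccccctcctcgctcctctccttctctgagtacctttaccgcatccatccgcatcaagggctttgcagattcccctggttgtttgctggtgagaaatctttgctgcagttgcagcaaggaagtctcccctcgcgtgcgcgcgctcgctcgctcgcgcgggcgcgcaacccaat
The half-site was found in 1 place in the Grin2c window and in none of the other 3 windows. The windows of Grin2c, Gria2 and Gria4 were rich in G and C (68.8, 64.8 and 58.8%) with 15, 19 and 16 CpG, whereas that of Gabrr2 had 47.6% and 1 CpG. The search covered 300 bases, with 50 after the start, and 29 of the 42 members had at least 1 of the 33 member windows. AGGTCA stood on either strand in 2 of these 33 windows (those of Grin2c and Gabrr3, 6.06%) and in 5340 of all 32851 windows (16.3%), and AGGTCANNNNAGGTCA, which holds the half-site at both ends, in 0 member windows and 5 of all windows (0.0152%). A match is a description of the letters and not of a bound site.

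Among the 12 sub-clusters of Neurons_1, 6 members had a mean CPM in 1 sub-cluster that was at least 3 times their median over sub-clusters and at least 20 CPM: Gabre, Glra1, Glra3, Gria3, Grin2c and Grin3a. The sub-cluster names are the authors', and most carried their markers (mean Pomc 2277 CPM in POMC/CART, Npy 1908 CPM in NPY/AgRP and Sst 776 CPM in somatostatin neurons). Orexin+ was an exception, since mean Hcrt, the orexin gene, was 69.6 CPM there and 827 CPM in Glutamatergic Neurons_2, so that this sub-cluster is used by its label alone. These levels are a description, as the clustering used all genes.

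The inhibitory subunits that stood out marked peptide neurons and 1 glutamatergic sub-cluster. Gabre, the ε subunit of GABA-A receptors that occurs in few brain regions outside the hypothalamus and brainstem, was at 24.8, 66.8, 40.9 and 56.4 CPM in NPY/AgRP neurons, which drive feeding, and 20.8, 39.3, 15.9 and 41.8 CPM in POMC/CART neurons, which oppose it. The ranges of these 2 sub-clusters overlapped, and the median over sub-clusters was 5.62 CPM. Glra1, the glycine receptor α subunit of adult spinal cord and brainstem, was at 95.2, 78.3, 87.8 and 93.0 CPM in Glutamatergic Neurons_2, 10.98 times its median, and all 4 libraries were above those of the next sub-cluster. Glra3 was at 347 ± 32.7 CPM in POMC/CART and 312 ± 45.0 CPM in somatostatin neurons, which overlapped, with a median of 101 CPM.

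Of the glutamate receptor genes, Gria3 was at 1180.2, 1137, 1069 and 945 CPM in somatostatin neurons, above every library of the next sub-cluster, and lowest in Orexin+ at 41.3 ± 19.6 CPM. Grin3a was at 568 ± 132 CPM in Orexin+ and 454 ± 31.7 CPM in oxytocin and vasopressin neurons, which overlapped. Grin2c, the astrocyte gene above, was at 24.1, 48.0, 10.5 and 26.5 CPM in the sub-cluster AVasopressin, 21.6 times its median, on 31, 48, 12 and 17 UMIs. Astrocyte markers there summed to 409, 345, 499 and 261 CPM, compared with 5640.0, 7519, 6139 and 9204 CPM in astrocytes, and the sub-cluster MCH, with 1351, 1144, 1406 and 821 CPM of these markers, held 6.85 CPM of Grin2c. The part of astrocyte RNA in these values was not tested.

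**Figure D2:**
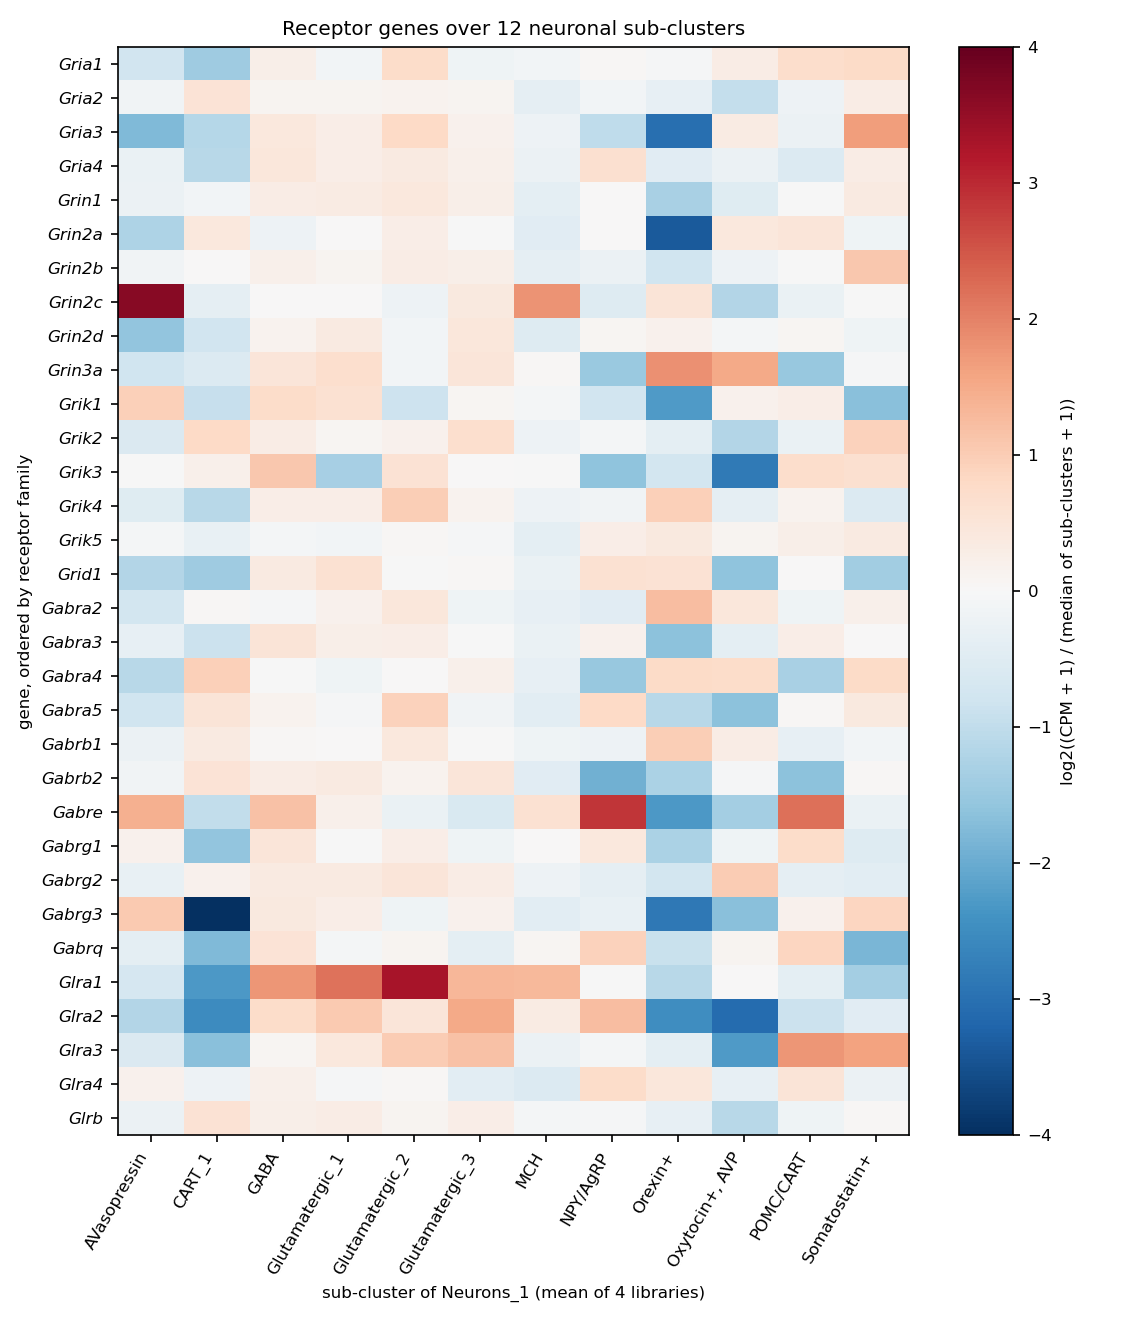
Rows are 32 of the receptor genes whose median over the sub-clusters was at least 1 CPM, ordered by family. Columns are the 12 neuronal sub-clusters under the authors' names. Gabrd, at 14.0 CPM in somatostatin neurons with a median of 0.903 CPM, is not shown. Colour gives log2 of the mean CPM plus 1 over the median of the sub-clusters plus 1; the deepest red cells are Grin2c in AVasopressin, Glra1 in Glutamatergic Neurons_2 and Gabre in NPY/AgRP.

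Whether mutant TRα1 changed these receptors was asked in each cluster by summing counts per library and testing TRα1+m against WT with edgeR's quasi-likelihood test. No member passed an adjusted p of 0.05 in any main cluster: 0 of 39 tested in Neurons_1 (background of all genes called 0.0%), 0 of 34 in oligodendrocytes (0.103%), 0 of 35 in astrocytes (0.0%), 0 of 31 in OPCs (0.0%), 0 of 27 in microglia (0.0%) and 0 of 18 in the remaining non-neuronal cells (0.027%). At an unadjusted p under 0.05 there were 1, 4, 2, 0, 1 and 3 members in these clusters, in the same order. These unadjusted counts stand without the share of all genes and are not read as a result about the members. DESeq2 called 2 members, both in oligodendrocytes, where it called 0.61% of all genes. With 2 libraries per genotype this fit leaves 2 residual degrees of freedom. In simulated oligodendrocyte counts of 12340 genes it called 27% of genes changed 2-fold and 99% of those changed 4-fold. The changed genes were drawn only from genes above a floor of summed UMIs, so that the rates do not cover members of few UMIs. The simulated counts held no difference between repeats shared by the genotypes. With the experimental repeat added to the model as a replicate block, and so 1 residual degree of freedom, 4 members passed in oligodendrocytes (background 4.35%), 3 in astrocytes (1.28%) and 3 in the non-neuronal cells (1.54%), and none in Neurons_1 (0.01%), OPCs (0.569%) or microglia (0.335%). The non-neuronal cells were a cluster of 57, 36, 80 and 34 nuclei. In it the paper reports markers of both astrocytes and oligodendrocytes and higher doublet scores. The authors held such doublets unlikely with nuclei, but out of caution left the cluster out of further work. The members called there were Gria4 (1.07, edgeR adjusted p = 0.00761 with the block), Gria1 (-0.74, 0.00241) and Grik1 (-2.17, 0.00802). They are therefore not read as calls in a further cell type. The genotype calls below depended on the test used and on whether the repeats were taken as pairs.

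In oligodendrocytes the delta receptor gene Grid1 was higher and the kainate receptor gene Grik1 lower in both TRα1+m libraries than in both WT libraries. Neither gene, nor Gria4 below, was above the highest of the neuron-specific genes in oligodendrocytes by the strict measure given earlier. Only Gabrr2 passed that measure there, where Nefl reached 2.54 times its Neurons_1 level. The part of neuronal RNA in their levels was not tested. Grid1 (chr14:34820108-35583379) was at 55.2 and 42.4 CPM in the wild-type libraries and 126 and 146 CPM in the TRα1+m libraries, on 143, 115, 341 and 368 UMIs. The groups did not overlap and the log2 difference was 1.54 (SE 0.21, edgeR adjusted p = 0.115, with the replicate block 5.25e-12, DESeq2 0.00339), with 1.19 in repeat 1 and 1.78 in repeat 2. Grik1 (chr16:87895900-88290265), whose product forms kainate receptors alone or with other kainate subunits, was at 146 and 143 CPM in the wild-type libraries and 65.4 and 55.8 CPM in the TRα1+m libraries. The log2 difference was -1.19 (SE 0.17, edgeR adjusted p = 0.12, with the block 5.98e-09, DESeq2 0.0492), again without overlap. DESeq2 called 0.61% of all genes in this cluster. In edgeR without the block, Grid1 passed when TRα1+m of repeat 1 or of repeat 2 was left out (adjusted p = 1.45e-04 and 0.0161), and Grik1 when TRα1+m of repeat 1 was (0.00329) but not when that of repeat 2 was (0.0634). Without WT of repeat 1 or of repeat 2 neither gene passed in edgeR, with adjusted p of 0.513 and 1.00 for Grid1 and of 0.876 and 1.00 for Grik1.

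Gria4 (chr9:4417896-4796234), an AMPA subunit of fast channels, was at 359.6 and 419 CPM in the wild-type libraries and 622 and 663 CPM in the TRα1+m libraries in oligodendrocytes. Its log2 difference of 0.79 (SE 0.16) had an edgeR adjusted p of 0.254 and of 1.90e-04 with the block. Gabrr2, which was picked out after its values were seen because the blocked fit called it, was at 35.1 and 52.0 CPM in the wild-type libraries and 18.5 and 21.4 CPM in the TRα1+m libraries, a log2 difference of -1.06 (SE 0.27, edgeR adjusted p = 0.401, with the block 2.43e-04). In all 4 genes both repeats showed the same direction, which follows from genotypes that do not overlap and is no separate evidence. No single nucleus gave more than 1.74% of the UMIs of Grid1, 2.91% of Grik1, 0.967% of Gria4 or 5.56% of Gabrr2 in a library. Of 33 members with at least 10 UMIs in every library, 10 had genotypes that did not overlap in oligodendrocytes, and of all such genes 32.6% did, so that the share of members was near that of all genes. The median log2 difference of the members was -0.16, beside 0.0098 over all genes tested.

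Several other measures differed between these libraries. Oligodendrocyte markers summed to 10761, 20554, 9805 and 24508 CPM, higher in both libraries of repeat 2, and within the repeats they were lower in TRα1+m in repeat 1 and higher in repeat 2. OPC markers summed to 66.4, 62.7, 75.0 and 44.4 CPM and markers of newly formed oligodendrocytes to 559, 647, 415 and 584 CPM, where the genotypes overlapped. Within the repeats, OPC markers were higher in TRα1+m in repeat 1 and lower in repeat 2. Markers of newly formed oligodendrocytes were lower in TRα1+m in both repeats. None of the markers in the 3 lists was at 0 in all libraries. In the oligodendrocyte nuclei below their library's median in neuronal RNA, the log2 differences were 1.499 for Grid1 (edgeR adjusted p = 0.117), -1.47 for Grik1 (0.0657), 0.79 for Gria4 (0.221) and -1.06 for Gabrr2 (0.499). Each had the direction found in all nuclei, of which these are a part, so that the direction is no separate evidence. The part of oligodendrocyte maturity in these differences was not tested.

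**Figure D3:**
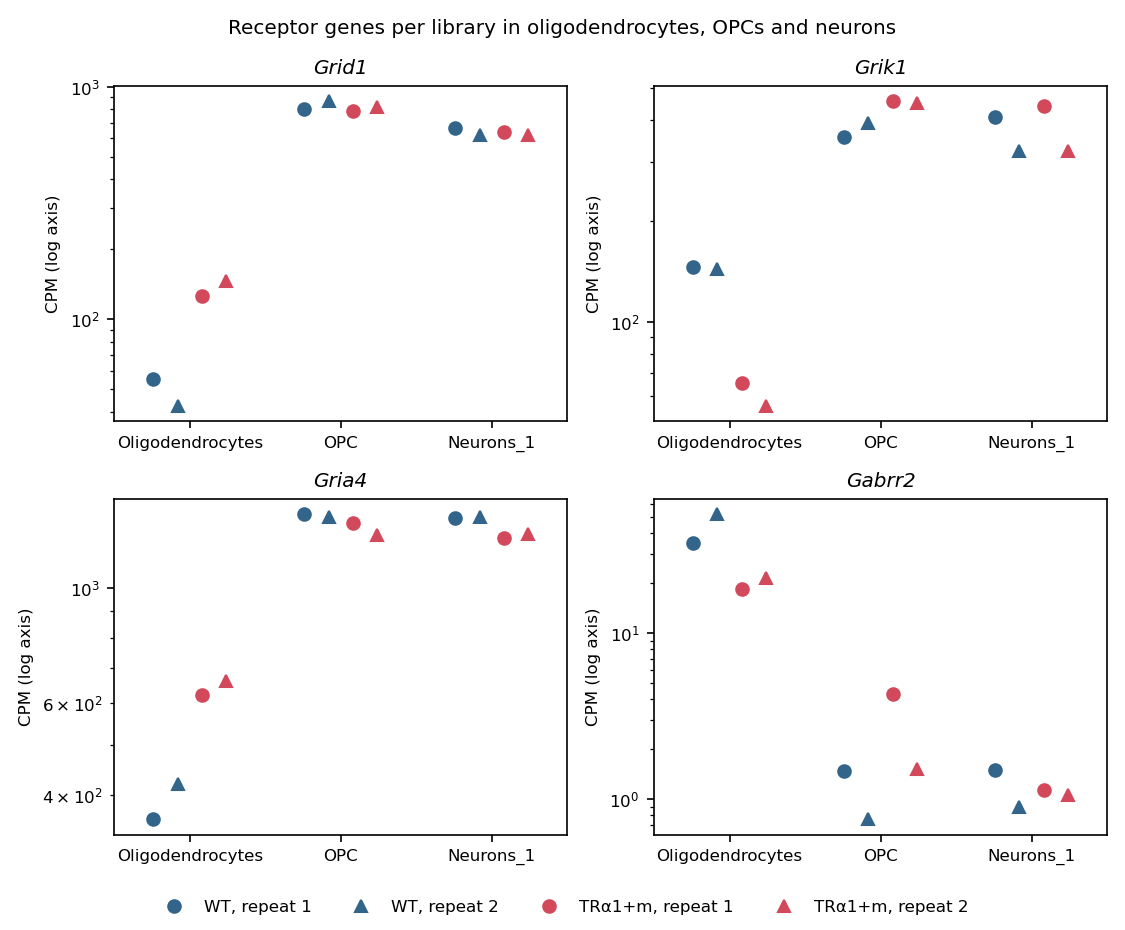
CPM of Grid1, Grik1, Gria4 and Gabrr2 on log axes, with 1 point per library for oligodendrocytes, OPCs and Neurons_1 (blue WT, red TRα1+m, circles repeat 1, triangles repeat 2). In oligodendrocytes both TRα1+m points lie above both WT points for Grid1 and Gria4 and below them for Grik1 and Gabrr2.

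The Grid1 difference of oligodendrocytes was not seen in neurons or OPCs. In Neurons_1 Grid1 was at 662, 621, 637 and 622 CPM (log2 difference -0.09, SE 0.09) and in OPCs at 799, 866, 786 and 819 CPM (-0.09, SE 0.13). The genotype effect in oligodendrocytes exceeded that in Neurons_1 by 1.61 (log2, SE 0.20, adjusted p = 0.011 for the interaction term in edgeR), and Grid1 was the 1 of 38 members tested that passed, beside 0.182% of all genes. This call rested on both WT libraries, since the adjusted p was 0.159 without WT of repeat 1 and 0.054 without WT of repeat 2, and it was 0.0653 under edgeR's bias-adjusted fit. With the replicate block the term passed for Grid1 (adjusted p = 7.06e-11), Grik1 (-1.21, 3.21e-08) and Gria4 (0.94, 1.19e-04), where 1.88% of all genes passed. Against OPCs, a comparison chosen after seeing the data, the term was 1.66 for Grid1 (edgeR adjusted p = 0.00148) and -1.40 for Grik1 (0.00148), and 0.94 for Gria4 (0.0538, with the block 4.75e-08), with 0.403% of all genes called without and 2.0% with the block. Grik1 itself was at 358, 394, 457 and 450.4 CPM in OPCs, higher in both TRα1+m libraries, with a log2 difference of 0.23 (SE 0.15, edgeR adjusted p = 1.00).

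In astrocytes the AMPA receptor genes Gria1 and Gria2 were lower in TRα1+m, though neither passed without the block. Gria1 (chr11:57011387-57330244) was at 1363 and 1628 CPM in the wild-type libraries and 813 and 1083 CPM in the TRα1+m libraries. The groups did not overlap, and the log2 difference of -0.64 (SE 0.18) had an edgeR adjusted p of 1.00, and of 4.92e-05 with the block. Gria2 (chr3:80681450-80802835) was at 648 and 610.0 CPM in the wild-type libraries and 352 and 365 CPM in the TRα1+m libraries, a log2 difference of -0.80 (SE 0.13, edgeR adjusted p = 1.00, with the block 8.40e-07), also without overlap. Gria3, the other gene of the smallest p, was at 77.8 and 85.2 CPM in the wild-type libraries and 66.9 and 55.6 CPM in the TRα1+m libraries (-0.40, SE 0.16, edgeR adjusted p = 1.00), and Gria4 at 92.4 and 101 CPM in the wild-type libraries and 99.3 and 95.8 CPM in the TRα1+m libraries.

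In both astrocyte sub-clusters Gria1 and Gria2 lay lower in both TRα1+m libraries than in both WT libraries. In the sub-cluster of astrocytes proper, Gria2 was at 728, 669.7, 368 and 327 CPM and Gria1 at 1609, 1889.8, 955 and 1217 CPM, with blocked log2 differences of -1.01 (edgeR adjusted p = 1.08e-13) and -0.69 (5.63e-07). In tanycytes Gria1 was at 340.3, 517, 197 and 265 CPM (-0.87, 8.60e-05 with the block) and Gria2 at 315, 354, 281 and 274 CPM (-0.26, 0.7), so that Gria2 did not pass there. Compared with Neurons_1, the blocked interaction term for the main astrocyte cluster was -0.71 for Gria2 (edgeR adjusted p = 7.35e-05) and -0.63 for Gria1 (9.94e-04), where 0.651% of all genes passed, and without the block neither term passed (1.00 and 1.00). Neuronal RNA in astrocytes (1311, 1263, 1292 and 853 CPM over 10 genes) was lowest in 1 TRα1+m library and in the other lay between the WT libraries. In the astrocyte nuclei below their library's median in neuronal RNA the differences were -0.84 for Gria2 and -0.66 for Gria1 (edgeR adjusted p = 1.00 and 1.00). Astrocyte and tanycyte markers (5640.0, 7519, 6139 and 9204 and 1951, 2532, 2087 and 2977 CPM summed) were higher in repeat 2 than in repeat 1 and, within each repeat, higher in TRα1+m than in WT. The part of neuronal RNA and of the make-up of the astrocyte cluster in these differences was not tested. In astrocytes 11 of 34 members did not overlap between genotypes, and 24.1% of all genes did not.

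**Figure D4:**
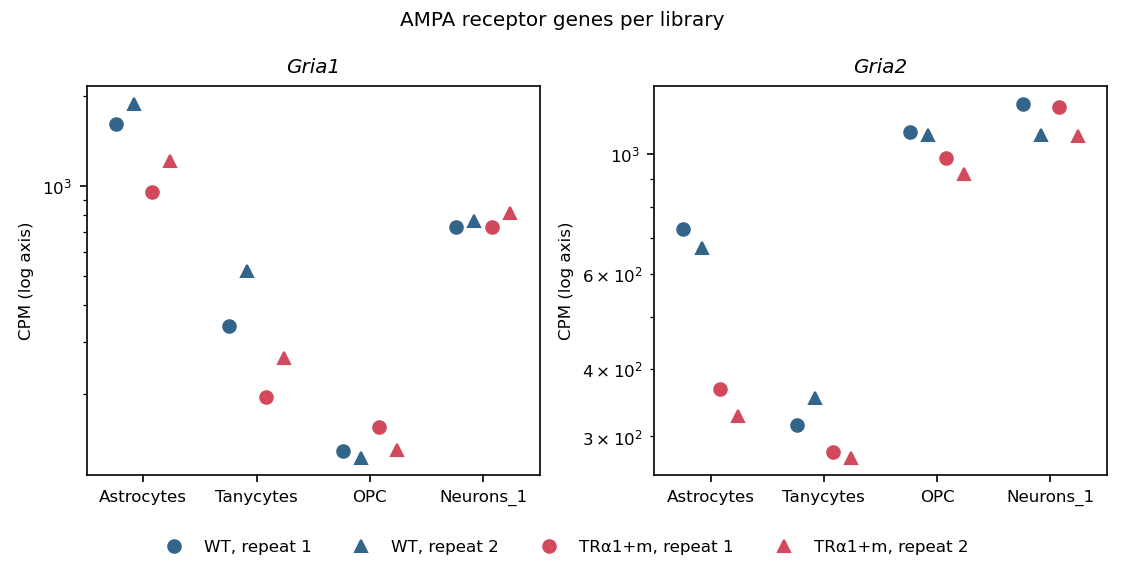
CPM of Gria1 and Gria2 on log axes, with 1 point per library in the astrocyte and tanycyte sub-clusters, OPCs and Neurons_1 (blue WT, red TRα1+m, circles repeat 1, triangles repeat 2). Both TRα1+m points lie below both WT points in astrocytes and in tanycytes for both genes, and the Neurons_1 points of the genotypes interleave.

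In neurons the differences between genotypes were small. The 3 members of smallest p in Neurons_1 were Grik2 at 2025, 2078, 1895 and 1896 CPM (log2 difference -0.18, SE 0.07, edgeR adjusted p = 1.00), Gria4 at 1361, 1363, 1246 and 1268 CPM (log2 difference -0.18, SE 0.07, edgeR adjusted p = 1.00) and Gabrb2 at 293, 292, 268 and 258 CPM (log2 difference -0.22, SE 0.10, edgeR adjusted p = 1.00). The median log2 difference over the 39 members was -0.09, beside 0.0092 over all genes tested, and 7 of 39 did not overlap between genotypes, with 23.1% of all genes. Among the members of smallest p in OPCs were Gria2 at 1101, 1084, 984 and 921 CPM (log2 difference -0.24, SE 0.14, edgeR adjusted p = 1.00) and Grik1 at 358, 394, 457 and 450.4 CPM (log2 difference 0.23, SE 0.15, edgeR adjusted p = 1.00). There 8 of 28 members did not overlap, with 27.3% of all genes, and in microglia 3 of 25, with 27.2%.

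**Figure D5:**
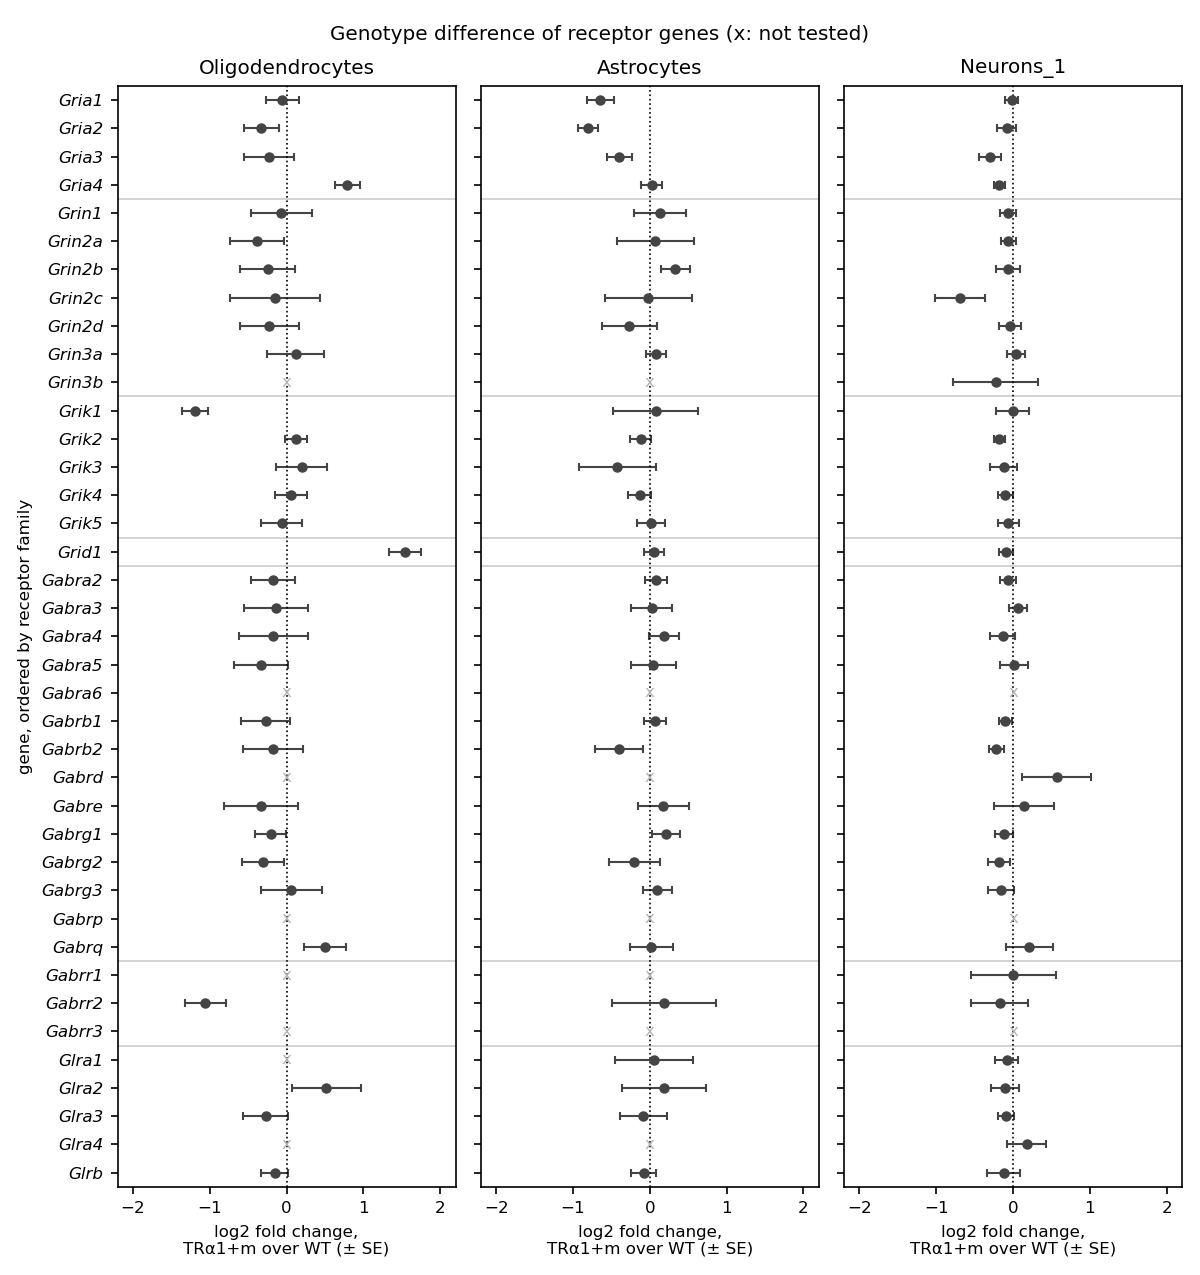
Log2 fold change of TRα1+m over WT for 39 of the receptor genes in oligodendrocytes, astrocytes and Neurons_1, with points for the edgeR estimate without the block, bars for ± 1 SE and a cross at 0 for genes that were not tested. Grid1 and Gria4 lie right of 0 and Grik1 and Gabrr2 left of 0 in oligodendrocytes, Gria1 and Gria2 left of 0 in astrocytes, and most Neurons_1 points stay near 0.

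In the 12 neuronal and 2 astrocyte sub-clusters, 0 of 454 tests of members passed, beside 0.0031% of all genes' tests. DESeq2 called 0, beside 0.00434% of all genes' tests. An unadjusted p under 0.05 in edgeR was found in 20 of the 454, beside 2774 of the 161387 tests of all genes. With the replicate block 8 of 454 passed, beside 0.54% of all tests. Among those in neurons were Gria3 in GABA neurons (-0.26, edgeR adjusted p = 0.015) and in Glutamatergic Neurons_2 (-0.39, 2.09e-04) and Grik1 in the oxytocin and vasopressin neurons (-1.09, 0.00948). Grik1 in the last of these was at 545, 339, 252 and 179 CPM, on 300, 176, 168 and 55 UMIs, and the lower WT library was above the higher TRα1+m library. Their log2 differences without the block were -0.26, -0.39 and -1.07, each with an edgeR adjusted p of 1.00.

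Because thyroid hormone promotes brain maturation, ratios of subunits that replace each other as the brain matures were compared in Neurons_1. The log2 ratio of Grin2a to Grin2b, the adult over the juvenile NMDA subunit, was -1.38, -1.06, -1.43 and -0.996 in the 4 libraries, and the higher values came from repeat 2 in both genotypes. The log2 ratio of Glra1 to Glra2, the adult over the fetal glycine receptor subunit, was -1.18, -1.11, -1.33 and -0.88, and that of the chloride transporters Slc12a5, which extrudes chloride in mature neurons, to Slc12a2, which imports it, was 1.75, 1.58, 1.61 and 1.51. Differences of TRα1+m minus WT in these log2 ratios were 0.00659, 0.04 and -0.11, and the genotypes overlapped in all 3 (two-sided exact permutation p = 0.667 or 1, where 2 against 2 libraries allow no p below 0.333).

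The proteins that hold the receptors at the synapse were examined in a list of 40 partner genes, made of auxiliary subunits, scaffolds, cerebellins, chloride transporters and serine racemase. None passed between genotypes in any main cluster or sub-cluster without the block. With it 2 passed in main clusters, Cacng4 in OPCs (0.569% of all genes called) and Shisa6 in astrocytes (1.28%). In sub-clusters 3 passed with it, Shisa6 and Shisa9 in the astrocyte sub-cluster and Dlgap1 in AVasopressin. The sub-cluster calls were 3 of 523 tests (0.574%), beside 0.540% of the tests of all genes. Cacng4, an auxiliary subunit of AMPA receptors, was at 368, 465, 243 and 342 CPM in OPCs, and both TRα1+m libraries were below both WT libraries. Its blocked log2 difference was -0.56 (SE 0.12, edgeR adjusted p = 0.0028), and the interaction with Neurons_1, where it was at 41.4, 46.9, 42.7 and 52.6 CPM, was -0.62 without the block (SE 0.14, edgeR adjusted p = 0.0126, 0.094% of all genes called). The adjusted p of that term was 0.207 without WT of repeat 1, 1.00 without WT of repeat 2 and 0.369 without TRα1+m of repeat 1, and it was 1.00 under edgeR's bias-adjusted fit. Shisa6, which keeps AMPA receptors from desensitizing, was at 62.4, 59.95, 81.5 and 86.6 CPM in astrocytes, higher in both TRα1+m libraries, with a blocked log2 difference of 0.47 (SE 0.13, edgeR adjusted p = 0.0421).

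In the fit with both genotype and experimental repeat, 34 tests of members passed between the repeats and 10 between the genotypes. With 2 libraries per repeat, edgeR called 13 of 39 members in Neurons_1 (25.2% of all genes), 10 of 35 in astrocytes (20.6%), 7 of 34 in oligodendrocytes (12.4%), 2 of 31 in OPCs (11.4%) and 2 of 27 in microglia (6.27%). In Neurons_1, 7 members were higher in repeat 2, among them Gabre with 0.73 (log2), and 6 were lower, among them Grik1 with -0.43 and Gabrg3 with -0.34. In astrocytes Gria1, Grik3 and Grin2c were higher in repeat 2 (0.30, 1.05 and 1.19) and 7 members were lower, and all 7 called in oligodendrocytes were lower. As given above, the ependymal markers in astrocytes differed between the repeats, and neuronal RNA in oligodendrocytes and astrocytes was lowest in TRα1+m of repeat 2. The part of either in these differences was not tested.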

How the data were processed

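Nuclei were isolated from frozen hypothalamus and sequenced with 10x Genomics chemistry. The authors aligned reads to mm10 with intronic reads counted in Cell Ranger 5.0.1 and deposited UMI counts per gene and barcode, and in a second set of tables the cluster names they had obtained in Seurat after removing low-quality nuclei and doublets, for 56386 of 68190 barcodes. Their neuronal sub-clusters were made after batch correction, but the deposited counts are not normalized. Counts were summed here per library and cluster (at least 10 nuclei in every library), scaled by TMM and filtered with filterByExpr, and tested with edgeR 4.0.16 (glmQLFit, robust, R 4.3.3), with Benjamini-Hochberg adjustment over the genes of each cluster. DESeq2 1.42.0, other scalings and filters, a replicate block, each library left out and glial nuclei below their library's median in neuronal RNA were tried as alternatives. The edgeR step was tested on simulated counts with 200 changed genes. The labels number the libraries by experimental repeat, which pairs 1 library of each genotype; the difference between repeats correlated across genes between the genotypes (0.365 to 0.668 by cluster). Nothing pairs the mice of the pools. The libraries of each genotype came from different repeats. Without the block their spread therefore held the difference between repeats as well as that between pools of 3 mice. The block takes the difference between repeats out. In both fits edgeR shared information on variance across genes, so that its p-values do not rest on each gene's own spread alone. Gene spans came from GENCODE M21 for GRCm38. Genotype statistics are given for members past the threshold and the 3 of smallest p in oligodendrocytes, OPCs, astrocytes and Neurons_1; sub-cluster levels for members at 3 times the median and 20 CPM; glial levels for members above the neuron-specific genes. The members, lists and tests were chosen with earlier results of these data known. Some members and results are not reported here.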

Additional observations from a re-analysis of the deposited data

Results flagged for a closer look

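In 4 cases the interaction term in edgeR, without the block, passed for a difference in the effect of the genotype between 2 clusters. Of all genes, 0.182% passed for oligodendrocytes against Neurons_1, 0.403% for oligodendrocytes against OPCs and 0.094% for OPCs against Neurons_1. For Grid1 the log2 effect in oligodendrocytes was 1.61 above that in Neurons_1 (adjusted p = 0.011) and 1.66 above that in OPCs (0.00148). For Grik1 the effect in oligodendrocytes minus that in OPCs was -1.40 (0.00148), with Grik1 lower in both TRα1+m libraries in oligodendrocytes and higher in both in OPCs. For the AMPA receptor auxiliary subunit Cacng4 the effect in OPCs minus that in Neurons_1 was -0.62 (0.0126). The terms of Grid1 and Cacng4 against Neurons_1 did not pass under edgeR's bias-adjusted fit. As given above, neither passed when either WT library was left out, nor did Cacng4 without TRα1+m of repeat 1. Such fits leave 1 library in a group. The terms of oligodendrocytes against OPCs were fitted only without and with the block. Neither the bias-adjusted fit nor leaving out a library was tried for them. The comparisons with OPCs were added after seeing the data.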

How the results depend on the processing

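Over the 6 main clusters the count of members called between genotypes was 0. It was 2 without the filter on low counts, 2 with DESeq2 and 10 with the replicate block, and it moved when 1 library was left out. The counts without the filter and with 1 library left out stand without the share of all genes. They are therefore not read as a result about the members. Of all genes, DESeq2 called 0.61% in oligodendrocytes, and the block 4.35% there, 1.28% in astrocytes and 1.54% in the non-neuronal cells. Over the sub-clusters the count of 0 became 3 without the filter (0.0479% of all genes' tests) and 8 with the replicate block (0.540%). The count of partner genes called between genotypes was 0. With the replicate block it was 2 in main clusters, 1 in OPCs (0.569% of all genes called) and 1 in astrocytes (1.28%). In sub-clusters it was 3 of 523 tests with the block (0.574%, beside 0.540% of the tests of all genes). For the interaction with Neurons_1 the count of 1 became 3 without the filter (share of all genes not given), 0 with bias-adjusted deviances and 5 with the replicate block. That block called 1.88% of all genes in oligodendrocytes and 0.651% in astrocytes. With OPCs as the reference of oligodendrocytes the count was 2 (0.403% of all genes), and 3 with the replicate block (2.0%). Between repeats edgeR called 34 members, beside 6.27% (microglia) to 25.2% (Neurons_1) of all genes. DESeq2 called 9, for which the share of all genes is not given. The replicate block changed no call named in the text other than those given beside it. The difference in the log2 ratio of Grin2a to Grin2b turned to -0.0503 in GABA neurons and -0.11 in Glutamatergic Neurons_3 and ran from -0.21 to 0.22 with 1 library left out, and that of Glra1 to Glra2 turned to -0.16 and -0.00490 and ran from -0.19 to 0.26. Glial levels above the neuron-specific genes numbered 3, 57 with the summed neuron genes as the measure and 13 in nuclei low in neuronal RNA. Those nuclei were chosen by the same neuron genes, which lowered the value to pass. By the mean share per nucleus 37 of 38 members kept their highest cluster. Of 129 alternative fits of the named members all 129 kept the direction. These members were picked for their smallest p in the same libraries that the alternatives reuse, so that the shared direction is no separate evidence. Adjusting p over all cell types together leaves the log2 differences of the main fit as they are. Scaling by RLE factors changed no count beyond 1.5 times. Where a value moved, the cause was not tested, and counts of 2 libraries per genotype limit all calls.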

Other observations

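The cluster Neurons_2, whose nuclei came almost all from TRα1+m of repeat 2 (852 nuclei), held a receptor set unlike that of Neurons_1 in the same library. Gabrd, the δ subunit of extrasynaptic GABA-A receptors, was at 77.8 CPM there (219 UMIs) and at 1.68 CPM in Neurons_1, and Grin2a was at 993 against 316 CPM. Gabra5 was at 315 against 103 CPM. Lower than in Neurons_1 were Gabrb1 (370.0 against 1423 CPM) and Glra3 (9.95 against 137 CPM). These genes were picked out after their values were seen. As 1 library holds the cluster, the values have no replicate, and genotype, repeat and dissection cannot be told apart in it.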
